A study of Homo sapiens with 2 samples.

Results

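The 10 genes described here encode interferon-induced antiviral effectors of 3 families: IFIT1, IFIT2, IFIT3 and IFIT5; OAS1, OAS2, OAS3 and OASL; and IFI44 and IFI44L. They were chosen by gene symbol, with earlier results of these data known. The authors' table of detected probes names 14933 genes. That table held 9 of the 10 members, on 11 probes, and IFI44L was taken from the scanner files through its transcript accession, on 1 probe. A further 2 member probes, 1 each for IFIT2 and OAS3, were found outside the table and are described but not counted. Each of the 14 probes was printed as a single spot.

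RNA was taken from cells labelled HCT116, a human colorectal carcinoma line of epithelial origin, 48 h after lipid transfection (Lipofectamine 2000) with a miR-204-5p mimic (an RNA that stands in for the mature microRNA) or a negative control whose sequence the labels do not state. Single-colour Agilent arrays were used, 1 per condition, making 2 arrays without replicates. No difference given here was tested or has a replicate error; each describes this pair of arrays. Both arms were transfected, and untransfected cells were not analysed here. Of 11 measured epithelial markers, 7 were at least 2-fold higher with mimic. On the control array CDX2, outside the table, was at background and CDH1 was dim. KRT18, KRT19 and CLDN4 were bright on both arrays, KRT18 and CLDN4 being named after their values were seen. The deposited coordinates place the KRT18 probes on chromosomes 4 and Y, not on 12. They place the probes of KRT8, which is among the 7, on chromosomes 1 and 8, also not on 12. KRT20 (90.9 with mimic and 127 with control), CDX1 (135 and 183) and LGALS4 (48.3 and 39.1) were far dimmer on both. With 1 array each, whether both arrays hold the same cells cannot be told apart from an effect of the mimic.

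Type I and type III interferons bind receptors that signal through the kinases JAK1 and TYK2 to transcription factors, STAT2 and IRF9 among them, that act at a DNA element called ISRE before many antiviral genes. IFIT proteins bind RNA that carries non-self 5′ ends and block its translation. OAS enzymes are switched on by double-stranded RNA and make short oligoadenylates, which act as messengers of RNA decay, whereas OASL lacks that activity and acts on RNA sensing by RIG-I. IFI44 and IFI44L are related cytoplasmic proteins whose biochemical roles are less well defined.

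The microRNA delivered in the treated arm is printed with the seed, bases 2 to 8, in capitals. The sequence is that of RefSeq on GRCh38.p14, where the mature microRNA lies at chr9:70810031-70810052 on the minus strand.
hsa-miR-204-5p: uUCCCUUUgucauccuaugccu

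The core of the ISRE was searched for as GAAANNGAAA or its reverse complement TTTCNNTTTC, the same motif on the other strand, in the 250 bases before each start site in RefSeq (GRCh38.p14). Of the 10 members, 7 had a promoter sequence: IFIT1, IFIT3, IFIT5, OAS1, OAS3, IFI44 and IFI44L. The motif was found in 6 of those 7, against 3.71% of 27305 genes, and at least 2 matches in 1 window were found in 5 of the 7, against 0.275% of genes. OAS1 had no match to these letters in its window. The matches are shown because the motif is the ISRE core, to compare the 6 members that hold it, and each match is in capitals. All are on the plus strand.
IFIT1, chr10:89392497-89392526: ctagctttagTTTCACTTTCccctttcggt
IFIT1, chr10:89392510-89392539: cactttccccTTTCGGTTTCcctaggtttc
IFIT3, first start site, chr10:89327831-89327860: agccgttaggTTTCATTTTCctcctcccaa
IFIT3, first start site, chr10:89327865-89327894: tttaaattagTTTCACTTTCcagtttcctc
IFIT3, second start site, chr10:89332425-89332454: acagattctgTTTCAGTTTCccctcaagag
IFIT3, second start site, chr10:89332468-89332497: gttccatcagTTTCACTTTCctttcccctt
IFIT5, chr10:89414513-89414542: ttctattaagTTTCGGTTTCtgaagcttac
IFIT5, chr10:89414539-89414567: ttacgtttagTTTCGATTTCttaagtttc
OAS3, chr12:112938321-112938350: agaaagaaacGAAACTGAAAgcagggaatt
OAS3, chr12:112938452-112938473: agccgggcggGAAAACGAAAcc
IFI44, chr1:78649761-78649790: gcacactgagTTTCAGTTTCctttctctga
IFI44L, chr1:78620274-78620303: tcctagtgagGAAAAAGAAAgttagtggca
IFI44L, chr1:78620365-78620394: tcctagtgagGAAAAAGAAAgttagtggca
The pair of IFI44L windows are identical in sequence. The IFIT5 and OAS3 windows hold as many matches as those of IFIT1 and IFIT3, and the array differences of these genes are set beside them below.

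The arrays held 44495 spots and 34127 distinct non-control probes. Probe intensity had its 75th percentile at 1364 with mimic and 893.5 with control, and each array was scaled to it, so intensities below are on a shared scale with the negative-control median at 4.52 with mimic and 4.45 with control. The middle 50% of the 14933 genes lay between -0.58 and 0.54 log2, mimic minus control, around a median of -0.05. As a guide to technical spread, the log2 difference had a median SD of 0.077 over the spots of 999 probes with at least 8 spots, and the median gap between the probes of 2545 genes with 2 probes was 0.48. In the authors' deposited table the raw mimic signal of 1366 of 20291 probes (6.73%) was the product of control signal and deposited fold (relative tolerance 1e-06). All 1366 are marked Down and have a deposited fold of at most 0.4999, and none of the 18924 probes marked Up shows the equality. Such probes are named recomputed here; for them the raw mimic signal adds nothing to the deposited fold, and no source used here says how it was obtained.

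Of the 10 members, 8 were at least 2-fold lower with mimic, 0 were at least 2-fold higher and 2 lay within 2-fold. Among the 9 in the table the count was 7 lower, where 14.3% of all genes were at least 2-fold lower and 13.9% at least 2-fold higher. The median difference of the members was -4.40 log2, and -3.75 over the 9 in the table with the deposited values. Past 16-fold, 5 of those 9 were lower, IFIT1, IFIT2, IFIT3, OASL and IFI44, where 0.964% of genes were that much lower. All 5 rest on recomputed probes, as do OAS1 and 1 of the 3 OAS2 probes. In all, 7 of the 11 table probes of members were recomputed. The other 4 were not at least 2-fold lower, against 7.98% of the non-recomputed table probes. Only probes with a low deposited fold are recomputed, so that split coincides with the outcome itself. Whether the low values come from how those probes were processed cannot be told apart from a lower signal.

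**Figure D1:**
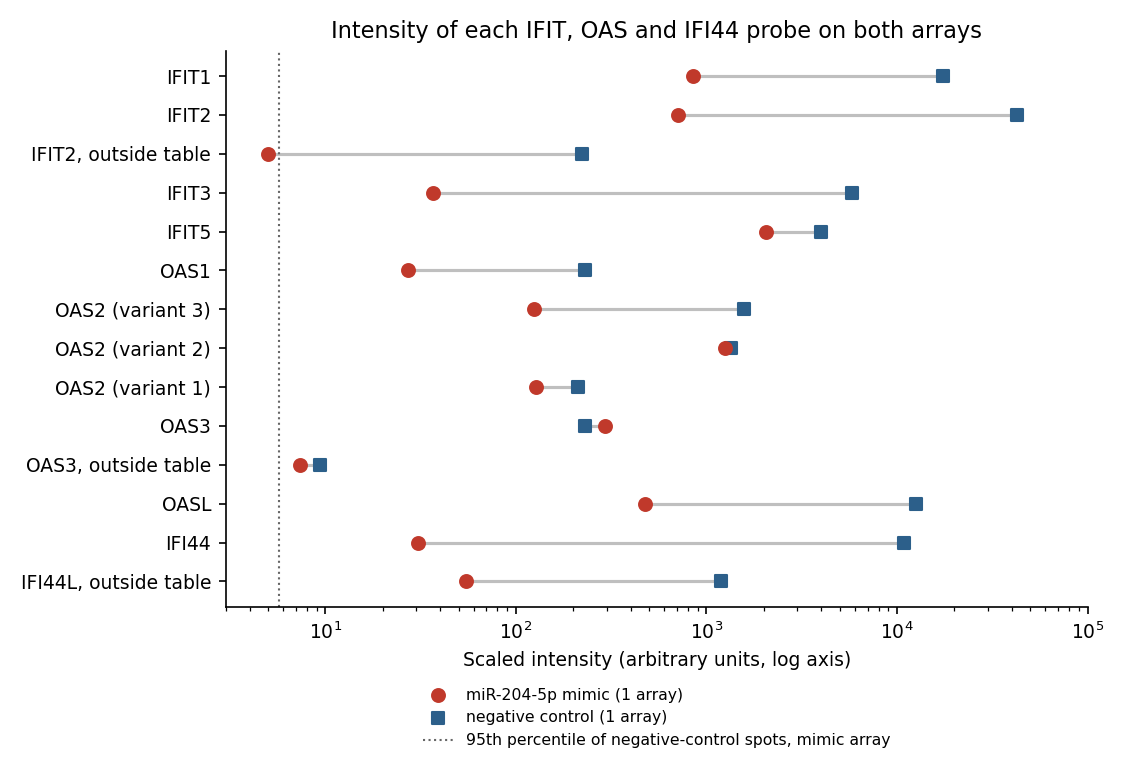
Scaled intensity of each member probe (log axis, arbitrary units) on the miR-204-5p mimic array (red circles) and the negative control array (blue squares), with 1 array each and a dotted line at the 95th percentile of the negative-control spots with mimic, 5.73. The mimic value lies far left of the control value for IFIT1, IFIT2, IFIT3, OASL, IFI44 and IFI44L and close to it for IFIT5, OAS3 and the OAS2 variant 2 probe.

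Within the IFIT family, IFIT1, IFIT2 and IFIT3 were all far lower with mimic and IFIT5 was within 2-fold. IFIT3, which stabilises the RNA-binding IFIT1 complex, had an intensity of 36.6 with mimic and 5776 with control. The difference was -7.30 log2, or 158-fold lower, rank 17 from the lowest of 14933 genes. It was -6.40 with 32 added to the intensities and -6.30 with normexp background correction, which both shrink differences of dim signals. Its probe lies at chr10:91099762-91099821 in the file's coordinates. No source used here names their build, which applies to every array probe. In a whole-culture sample, fewer cells expressing a gene and less RNA per cell cannot be told apart.

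IFIT2, an IFIT protein also linked to cell death, had an intensity of 711 with mimic and 42694 with control at its table probe (chr10:91068397-91068456). That is -5.91 log2, or 60.1-fold lower, rank 47 of all genes. The IFIT2 probe outside the table, which has no deposited fold to be checked against, had 5.00 with mimic and 222 with control. Its mimic signal was under the 95th percentile of the negative-control spots, so it gives only a bound, at least 38.7-fold lower. Both IFIT2 probes thus had the lower signal with mimic.

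IFIT1, which binds capped RNA that lacks the self-marking ribose methylation, had 847 with mimic and 17404 with control (chr10:91163438-91163497). The difference was -4.36 log2, or 20.5-fold lower. IFIT5, which binds RNA with a 5′ triphosphate, had 2057 with mimic and 3998 with control (chr10:91179559-91179618). At -0.96 log2, or 1.94-fold lower, it was just inside the 2-fold limit and at percentile 15.1 of all gene differences. Its probe was not recomputed. The IFIT5 transcript was therefore bright on both arrays, 455 times the negative-control median with mimic and 899 times with control. Its neighbours in the same cluster differed by 20.5-fold or more, at table probes that are all recomputed.

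Within the OAS family the 4 genes went different ways. OASL had an intensity of 475 with mimic and 12521 with control, -4.72 log2 or 26.4-fold lower (chr12:121458320-121458379). OAS1, the smallest of the catalytic OAS enzymes, had 27.2 with mimic and 232 with control, 8.53-fold lower (chr12:113354461-113354520). The mimic signal of OAS1 lay near the low end of the scale, at 6.01 times the median of the negative controls, and its difference of -3.09 log2 was -2.16 both with 32 added and with normexp. OAS3, the largest enzyme of the family, was the only member with a higher mimic value: 293 with mimic and 230 with control, 1.27-fold higher or 0.35 log2 (chr12:113410131-113410190). The OAS3 probe outside the table was close to background, at 7.36 with mimic and 9.40 with control. Averaging it in puts OAS3 level between the arrays.

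OAS2 depends on the probe. The probe for transcript variant 3 (chr12:113426550-113426609), a recomputed one, had 124 with mimic and 1574 with control, 12.7-fold lower. The probe for variant 2 (chr12:113448429-113448488) had 1254 with mimic and 1346 with control, 1.07-fold lower. The variant 1 probe (chr12:113448601-113448660) had 128 with mimic and 213 with control, 1.67-fold lower. The variant 2 and variant 1 probes lie next to each other and neither was recomputed. The gap between them and the variant 3 probe, -3.66 against -0.10 and -0.74 log2, is far wider than the median gap of 0.48 between the probes of a gene. The mean of the 3 probes, 2.83-fold lower, counts OAS2 among the lower members, but with the brightest probe alone (-0.10), without the recomputed probe (-0.42), without scaling (-0.89) or with the deposited values (-0.91) it lies within 2-fold.

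IFI44 had the lowest difference of all members. Its intensity was 30.6 with mimic and 10838 with control, -8.47 log2 or 354-fold lower, rank 4 from the lowest of all genes (chr1:79128479-79128538). The mimic value was 6.76 times the negative-control median, and the difference was -7.44 log2 with 32 added and -7.32 with normexp. IFI44L had 54.9 with mimic and 1196 with control, -4.45 log2 or 21.8-fold lower, and differed by -3.82 with 32 added and -3.76 with normexp. IFI44L has no deposited fold, so the equality that marks recomputed probes could not be checked for it. Its mimic signal divided by 1.2 is a number of 7 significant digits, as for 95.5% of mimic spots and 18.0% of control spots. The other 6 member probes that are not recomputed carry this factor of 1.2, and none of the 7 recomputed ones does. No source used here says what the factor stands for. IFI44L is outside the table, and among the 1843 probes outside it that were over 10 times the negative-control median with control, 23.9% were at least 16-fold lower with mimic as measured, 22.3% with mimic signals under the floor of 5.73 set to it, and 41.8% at least 4-fold lower either way. A difference of its size is thus common among such probes.

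**Figure D2:**
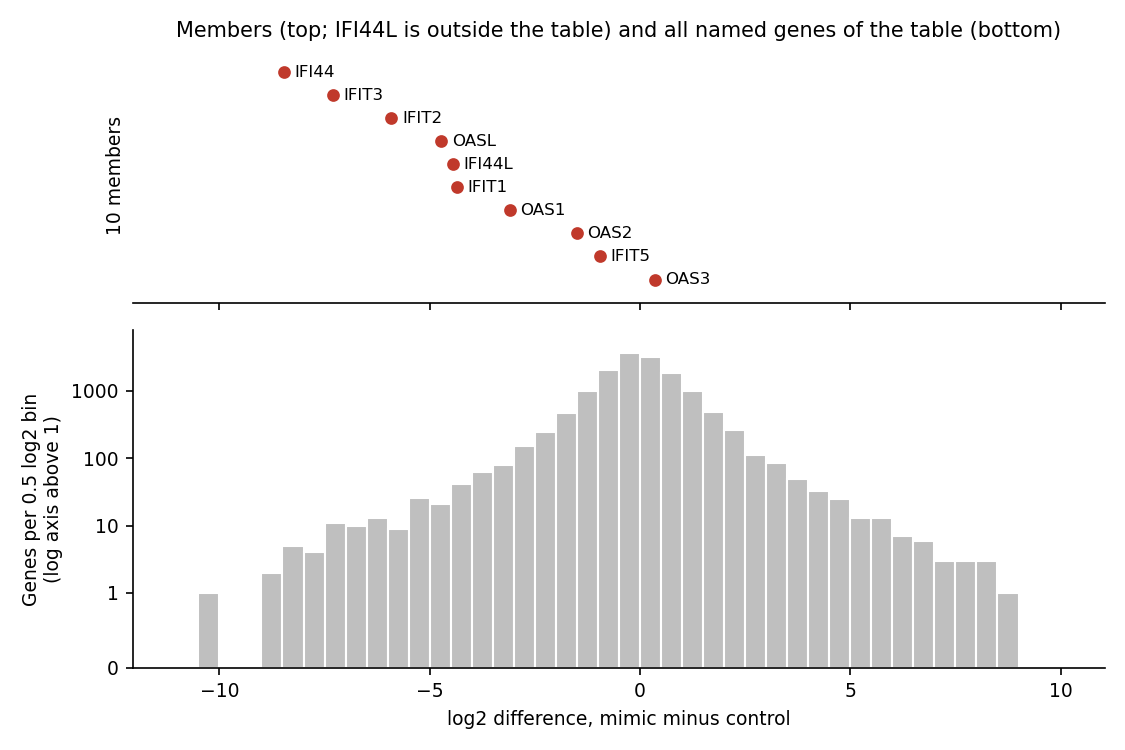
Upper panel, the log2 difference (mimic minus control) of each of the 10 members; lower panel, the number of named table genes per bin of 0.5 log2 (log axis above 1). IFI44, IFIT3 and IFIT2 lie in the thin lower tail, between -8.47 and -5.91, while IFIT5 and OAS3 lie in the bulk of the distribution.

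The members' values were then set beside the authors' own. In the authors' deposited table the fold, mimic over control, was 0.00431 for IFI44, 0.00966 for IFIT3, 0.0254 for IFIT2, 0.0579 for OASL, 0.0743 for IFIT1 and 0.179 for OAS1, which is 232-fold to 5.59-fold lower. For OAS2 the authors' deposited table gives 0.121 at the variant 3 probe, 1.41 at the variant 2 probe and 0.885 at the variant 1 probe. For IFIT5 it gives 0.822 and for OAS3 1.86. These ratios are all higher than those of the scaling used here, which takes 0.61 log2 off the raw ratio. At a recomputed probe the raw ratio already is the deposited fold, so the scaling moves that fold by a further 0.61 log2. IFI44, for example, is 354-fold lower scaled and 232-fold lower as deposited. Whether that shift is right for recomputed probes was not tested, and their folds and ranks given here depend on it. The deposited normalized values put the median of all genes at 0.58 log2. After 0.6 was taken off, 90.8% of the normalized mimic values of probes marked Up matched some control value within 2e-06, all 4 such member probes among them, against 1.17% of the probes marked Down. With 0.6 taken off the probes marked Up, an alternative added later, IFIT5 was at -0.88 and OAS3 at 0.29 log2.

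**Figure D3:**
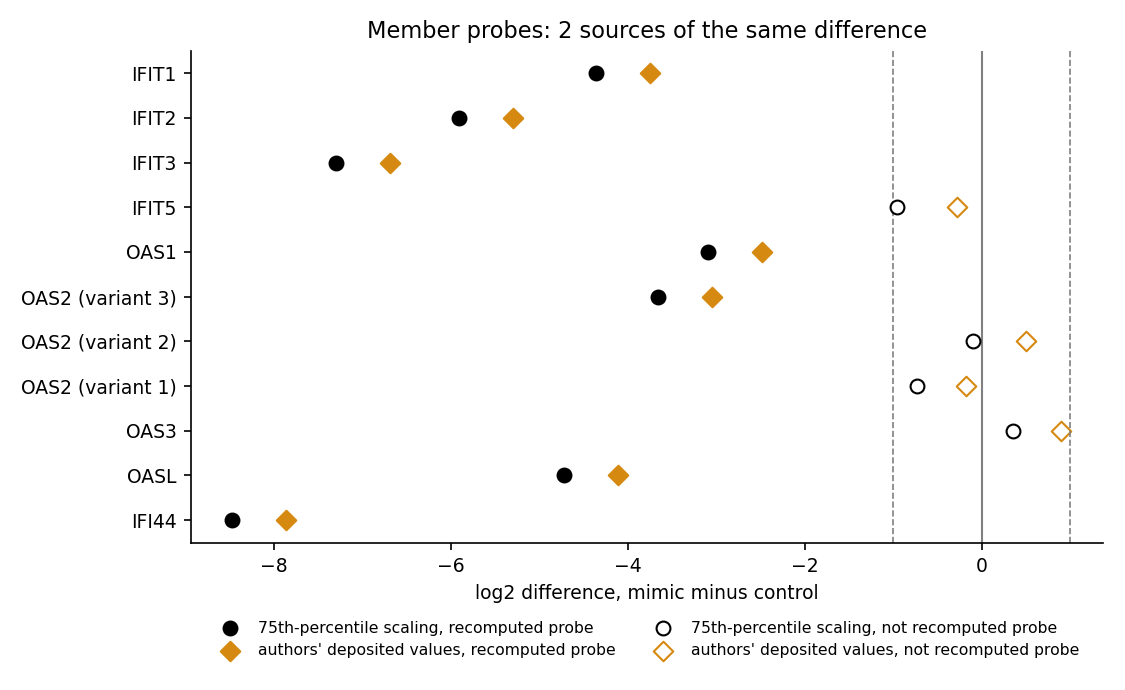
The log2 difference, mimic minus control, of the 11 member probes in the table by the 75th-percentile scaling (circles) and by the authors' deposited values (diamonds), with recomputed probes filled, others open, and dashed lines at 2-fold. Every deposited value lies to the right of the scaled one, and the open symbols of OAS2 variant 2 fall on opposite sides of 0 (-0.10 scaled and 0.49 deposited).

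The genes that lie next to the members were examined next. LIPA, the lysosomal acid lipase gene and the measured gene before the IFIT cluster, was 4160 with mimic and 5519 with control, 1.33-fold lower, and SLC16A12, the measured gene after it, was 1.46-fold lower. The file places the SLC16A12 probe on chromosome 16 and not on 10, and whether it reads that gene was not checked. On either side of the OAS1, OAS3 and OAS2 cluster, RPH3A differed by 0.02 and RASAL1, a Ras GTPase-activating gene, by 0.84 log2. Beside OASL, P2RX7, an ATP-gated channel, differed by 0.36 log2. PTGFR, a prostaglandin receptor gene before IFI44L, was 71.4 with mimic and 146 with control, 2.04-fold lower, and ADGRL2, the measured gene after IFI44, was 11.0-fold lower from recomputed probes. Except at the IFI44 locus, then, the neighbours named here lay within 2-fold, with LIPA the only IFIT neighbour whose probe is placed on chromosome 10.

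Among other interferon-stimulated genes, most of those measured lay within 2-fold. Of 50 listed, 38 were in the table: 13 were at least 2-fold lower, 2 at least 2-fold higher and 23 within 2-fold, with a median of -0.60 log2 beside -0.05 over all genes, of which 14.3% were at least 2-fold lower. Of the 13 lower genes, 11 had a recomputed probe. GBP3, a guanylate-binding protein, was 252 with mimic and 18286 with control, 72.4-fold lower. RTP4 was 16.9-fold lower, MX1, a dynamin-like GTPase that blocks viral nucleocapsids, 14.6-fold, SAMD9 13.3-fold and MX2 7.59-fold, all on recomputed probes. LAMP3, a lysosomal membrane protein gene, was the reverse, at 5590 with mimic and 402 with control, 13.9-fold higher.

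The remaining 12 listed genes had probes outside the table only. Over the list, 14 of 22 outside probes exceeded 10 times the median of the negative controls on the control array, and of those, with mimic signals under the floor of 5.73 set to it, 11 were at least 4-fold lower with mimic and 8 at least 16-fold lower, beside 41.8% and 22.3% of all such probes. Choosing probes by a bright control signal favours those lower with mimic, so these counts are no support for a lower signal. Probes outside the table have no deposited fold, so they could not be checked for the equality that marks recomputed probes. All 14 carry the factor of 1.2. IFI16, a DNA sensor, had 6.61 with mimic and 6327 with control. GBP1 had 4.63 with mimic and 1382 with control, at least 241-fold lower. RSAD2, which encodes the antiviral enzyme viperin, had 4.27 with mimic and 388 with control, at least 67.7-fold lower. SAMD9L was 658-fold lower at 1 probe and at least 194-fold lower at the other, GBP2 was 45.0-fold lower and the chemokine gene CXCL11 was 36.9-fold lower. The pair of CXCL10 probes were at least 33.3-fold and at least 14.7-fold lower, XAF1 at least 8.55-fold, EPSTI1 7.32-fold, PARP14 3.69-fold and 1 TRIM14 probe 1.43-fold. CMPK2 and TRIM22 were the reverse, 4.14-fold and 4.74-fold higher. The mimic signals of GBP1, RSAD2, XAF1, CXCL10 and 1 SAMD9L probe were under the 95th percentile of the negative-control spots, so a level could be read for them with control alone. Those of IFI16 (6.61) and the other SAMD9L probe (5.87) were just above that percentile, 5.73, so their differences are little more than bounds.

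**Figure D4:**
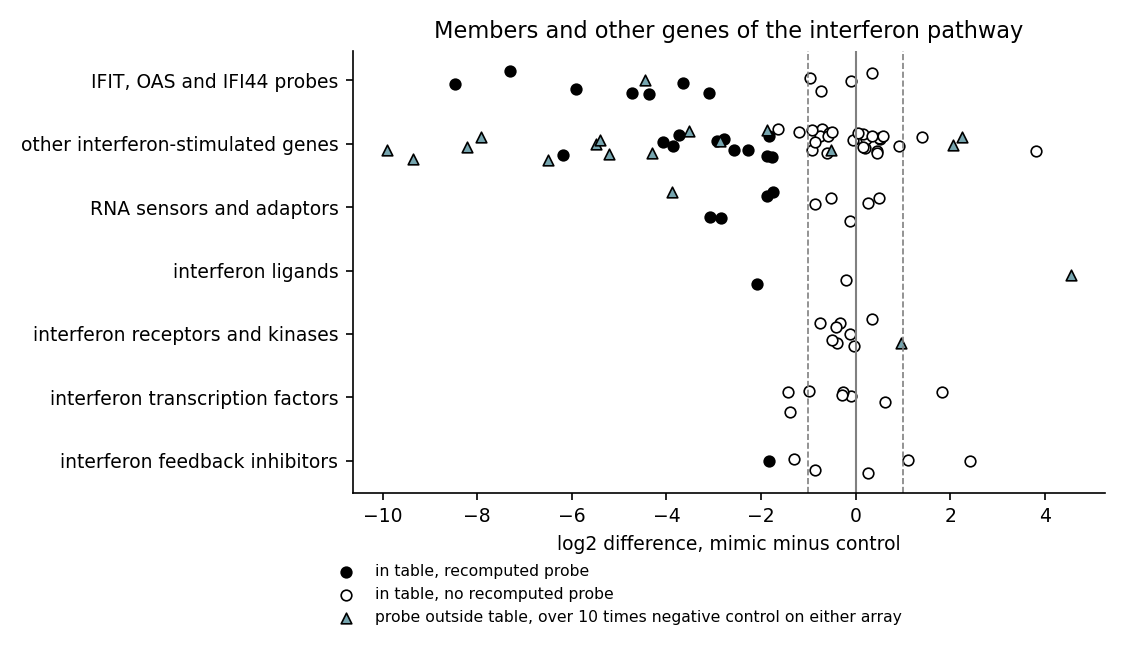
The log2 difference, mimic minus control, of each member probe counted and of each gene in 6 other lists of the interferon pathway, with filled circles for genes with a recomputed probe, open circles for other table genes, triangles for probes outside the table that exceed 10 times the negative-control median on either array, and dashed lines at 2-fold. Receptors and kinases cluster between -0.75 and 0.33 apart from the TYK2 probe outside the table at 0.95. The other interferon-stimulated genes spread from -9.90 (IFI16, outside the table, with a mimic signal close to background) to 3.80 (LAMP3).

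Genes that act upstream of the members were examined as 4 lists. None of the 8 measured receptors and kinases was past 2-fold: IL10RB, shared by type III interferon receptors, was 423 with mimic and 711 with control, IFNAR1 was 1.33-fold lower, IFNAR2 1.27-fold lower, IFNGR2 1.41-fold lower and JAK2 1.34-fold lower, and JAK1 differed by 0.33 log2. Of 8 measured transcription factors, 2 were at least 2-fold lower and 1 higher, none from recomputed probes. IRF7, which drives interferon genes, was 2111 with mimic and 5669 with control, 2.69-fold lower, and IRF9 was 952 with mimic and 2498 with control, 2.62-fold lower. STAT2 was 4938 with mimic and 9802 with control, 1.99-fold lower, IRF3 differed by -0.29 and IRF2 by 0.62 log2, and IRF5 was 3.54-fold higher.

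Among 6 feedback inhibitors 2 were lower and 2 higher. SOCS3 was 2.45-fold lower and the ubiquitin-like gene ISG15, which is also in the list of stimulated genes, 3.57-fold lower from a recomputed probe. The receptor inhibitor USP18 was 1.81-fold lower, SOCS1 was 2.16-fold higher, and the phosphatase gene PTPN6 was 605 with mimic and 114 with control. PIAS1 differed by 0.27 log2.

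Of 9 measured RNA sensors and adaptors, 4 were at least 2-fold lower, all from recomputed probes, and 0 were higher. RIGI, the sensor of 5′-triphosphate RNA, was 781 with mimic and 6642 with control, 8.50-fold lower over 2 probes (-3.70 and -2.48). Its regulator DHX58 was 7.20-fold lower, the long double-stranded RNA sensor IFIH1 3.68-fold lower and TLR3 3.36-fold lower. The adaptors STING1 and MYD88 were 1.82-fold and 1.43-fold lower, and CGAS, a DNA sensor outside the table, was 15.4 with mimic and 227 with control.

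Of the interferon genes themselves, 2 were in the table. IFNL1, a type III interferon, was 83.7 with mimic and 358 with control, 4.28-fold lower from a recomputed probe, and IFNL2 was 1.16-fold lower. IFNE, outside the table, was 113 with mimic and 4.86 with control, at least 20.9-fold higher.

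The cell label was set against marker genes, since the arrays differed well beyond interferon genes. Of 14 colorectal epithelium markers, 11 were in the table, and 7 of these were at least 2-fold higher with mimic and 0 lower. E-cadherin (CDH1) was 11324 with mimic and 36.6 with control, EPCAM was 65569 with mimic and 608 with control, KRT19 was 13.0-fold higher, CLDN3 27.3-fold and CLDN7 26.3-fold. KRT8, also among the 7, was 8.23-fold higher, but the deposited coordinates place its probes on chromosomes 1 and 8, not on 12. Whether the KRT8 probes read that gene was not checked. CDX2, outside the table, was 1255 with mimic and 5.14 with control, which is at background. Of 7 measured mesenchymal markers, 5 were lower and 2 higher. Vimentin (VIM) was 1279 with mimic and 163211 with control, PDGFRB was 3.95-fold lower and COL1A2 3.49-fold lower, all from recomputed probes, CDH2 was 2.70-fold lower, and COL1A1 and ACTA2 were 6.48-fold and 3.51-fold higher. Of 5 blood cell markers 1 was lower and 1 higher: CD68 by 3.90-fold (recomputed) and CD79A by 2.08-fold, and PTPRC, CD3E and CD14 were within 2-fold. Housekeeping genes had a median of 0.11 log2, with 1 of 10 past 2-fold (GUSB, 2.12-fold lower). CDX2 was thus at background with control and CDH1 was dim there. CDH17 and VIL1, outside the table, were near the negative controls on both arrays, and KRT18 and CLDN4 (named after their values were seen) were bright on both, KRT18 with 43600 for mimic and 22142 for control. The deposited coordinates place the KRT18 probes on chromosomes 4 and Y, not on 12, and whether they read that gene was not checked. Summed over the table genes of each list, epithelium markers reached 260749 with mimic and 45088 with control, mesenchymal markers 3131 with mimic and 165537 with control, and blood cell markers 5861 with mimic and 4549 with control. VIM made up most of the mesenchymal sum, and the other 6 genes summed to 1851 with mimic and 2325 with control. In the same pair of arrays most epithelium markers were thus higher with mimic, while VIM and most members were lower. What part the marker differences have in those of the members was not tested. A difference in the cells hybridised and an effect of the mimic cannot be told apart with 1 array each.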

How the data were processed

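Cy3-labelled RNA from 1 mimic-transfected and 1 control-transfected culture was hybridised to 1 Agilent array each, per the labels' protocols. The submitters' processing notes name Agilent Feature Extraction 9.1. The deposited scanner files hold raw intensity per spot. The authors' deposited table gives, for each probe, a raw intensity, a normalized intensity as log2 and the linear fold (a ratio), over 20291 probes, detected in 5 of 5 samples per the file headers, of which 3 samples are not analysed here. No source used here gives the normalization method or the genome build. The log2 values of the series value table differ from the deposited ones by at most 0.005, with medians of 9.81 (mimic) and 9.21 (control), so its scale is log2, uncentred, and mimic and control follow the labels.

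Log2 spot intensities were averaged per probe, each array's 75th percentile over 34127 non-control probes was subtracted, and table probes were averaged per gene. Probes were named through their Entrez identifier, an accession or else the file's symbol. A 95th percentile of 153 negative-control spots set the floor for bounds ("at least"). With 1 array per group there is no p-value or SE. Members and lists were chosen with earlier results of these data known. Named were all members, at most the 6 largest differences of each list, list genes outside the table over 10 times the negative-control median, and measured genes flanking each locus. The epithelium markers KRT18, CLDN4, KRT20, CDX1, LGALS4, CDH17 and VIL1 were named outside this rule. The result for 1 flanking gene is not reported here. Alternatives were other scalings, normexp with an offset of 50, 32 added before the logarithm, other probe choices and thresholds (limma 3.58.1 in R 4.3.3). The scaling was also run on simulated arrays in which few probes changed. Many more genes differ here, so that run does not show that the scaling holds for these arrays.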

Additional observations from a re-analysis of the deposited data

Results flagged for a closer look

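Among the pathway and marker genes, 4 probes outside the authors' table had a signal on the mimic array above that of the control array by at least 2-fold and over 10 times the negative-control median. They belong to CMPK2, a mitochondrial nucleotide kinase gene (196 with mimic and 47.3 with control, 4.14-fold higher), TRIM22, an antiviral ubiquitin ligase gene (94.0 with mimic and 19.8 with control, 4.74-fold higher), IFNE (at least 20.9-fold higher) and CDX2 (at least 232-fold higher). These genes are not part of the counts over table genes.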

How the results depend on the processing

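The median member difference of -4.40 log2 was -3.79 without scaling, -4.02 with normexp, and -3.75 both with the deposited values and with those values less 0.6 at probes marked Up. Without recomputed probes, which removes lower probes by construction, it was -0.69 over 4 members, of which 1, IFI44L, was at least 2-fold lower. Under the other settings 6 to 8 members were at least 2-fold lower, and 9 were at least 1.5-fold lower and 7 at least 4-fold. IFIT1, IFIT2, IFIT3, OAS1, OASL, IFI44 and IFI44L were at least 2-fold lower under every alternative normalization and probe choice that measured them, IFIT5 under none. The table probes of these lower members are recomputed, except for IFI44L, and have a deposited fold of at most 0.4999. For those 6 the settings re-express 1 deposited fold per gene, apart from the IFIT2 probe added with no detection filter. Their agreement is therefore not independent support. Of all genes, 2134 were at least 2-fold lower and 2082 higher. These counts were 1041 and 4482 without scaling, 1022 and 4616 with the deposited values, 3694 and 3512 at 1.5-fold, and 682 and 617 at 4-fold. With no detection filter 3471 genes were lower, and without recomputed probes 1062. Of the other interferon-stimulated genes, 13 of 38 were lower, against 22 of 50 with no detection filter, 8 at 4-fold and 2 of 28 without recomputed probes. No paired analysis was possible because each group has 1 array. The number of arrays limits the precision, and signals near the negative controls give bounds only.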
